A study of Mus musculus with 5 samples.

Results

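Tripartite motif (TRIM) genes were examined in macrophages taken directly from mouse fibrosarcomas. The members are the rows of the authors' deposited gene table that Cuffdiff tested (status OK) and that carry a single symbol made of Trim and a number. The table holds 66 rows with such a symbol among its 24982 rows, and 40 of them were tested, out of 12311 tested rows in all. The other 26 were not tested, and 1 further row, which joins Trim60 and Trim61, was listed at 0 and was not tested either.

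The tumors came from a fibrosarcoma line named 9609, of the MCA type (tumors raised with the carcinogen methylcholanthrene). The MEK1-hi group has 3 libraries, with a tumor line and genotype labelled MEK1-hi and a treatment with MEK1-hi exosomes, which are small vesicles shed by cells. The MEK1-low group has 2 libraries, with a tumor line and genotype labelled MEK1-low and a treatment with MEK1-low exosomes that carry the note GFP. The labels give no age, no strain and no dose or time of the exosomes, and do not say how the macrophages were isolated. MEK1 is the kinase that activates ERK in the RAS pathway. The table gives 1 pooled FPKM per group (fragments scaled by transcript length and by library size), so levels can be compared between genes, but no spread between libraries can be given. Where 2 levels are given, MEK1-low comes before MEK1-hi. A number in parentheses after them is the log2 difference, MEK1-hi over MEK1-low, computed from the deposited FPKM.

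TRIM proteins share a RING domain, B-box zinc fingers and a coiled coil, in that order, and most act as ubiquitin ligases. The part that follows the coiled coil sets the class and the target: many end in a PRY-SPRY domain, which binds other proteins, and smaller classes end in a chromatin-reading, RNA-binding or microtubule-associated domain. Many PRY-SPRY members are induced by interferon and act on viruses or on the sensors of foreign RNA and DNA, and several are induced in macrophages.

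No TRIM gene passed the test between the groups. In the authors' deposited table, 0 of 40 members were called at Cuffdiff's q of 0.05 (the adjusted p), beside 1.32% of all tested rows. At an unadjusted p under 0.05, 1 of 40 members was found, Trim11, beside 6.08% of all tested rows in the authors' deposited table. Trim11 had q = 0.685 and the other 39 members q = 0.9998 in the authors' deposited table. The statistics of the members ran from -1.03 to 1.38 in the authors' deposited table. Among called rows above 0 in both groups, the smallest absolute statistic in the authors' deposited table was 2.12. The members' log2 differences ran from -0.78 (Trim71) to 0.72 (Trim69), with a median of 0.03 beside -0.02 over all tested rows. Among all rows above 0 in both groups, the smallest absolute difference called was 0.82. Smaller differences in these genes were below what this comparison called. The labels do not say that libraries came from separate animals, so p and q reflect variation among these libraries alone, and that variation may be technical.

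**Figure D1:**
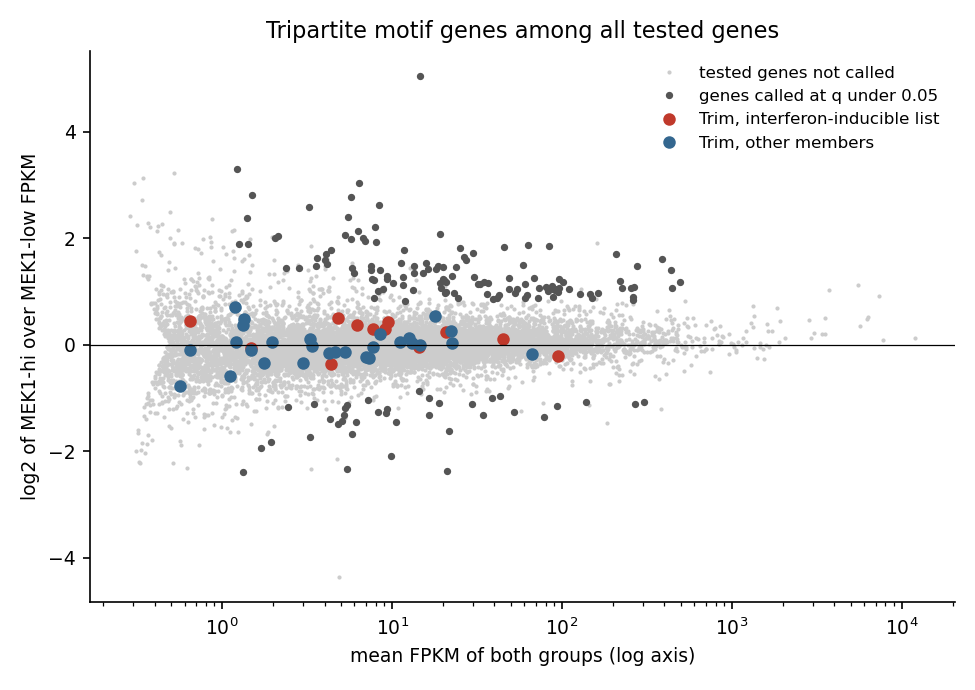
Log2 difference (MEK1-hi over MEK1-low FPKM, vertical) against the mean FPKM of both groups (horizontal, log axis) for tested genes with 1 symbol. TRIM genes (red for the interferon-inducible list, blue for the others) lie between -0.78 and 0.72, among the genes that were not called (light grey); called genes are dark grey.

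A set of 16 interferon-inducible TRIM genes was listed from general knowledge of the family. Of these, 15 were found and 12 tested; Trim6, Trim34b and Trim38 were not tested. The promoters of most of them hold the letters that interferon-activated transcription factors bind, the interferon-stimulated response element (ISRE), and these stretches are shown first because they mark which members carry that element and which are near-copies of each other. The windows run from 250 bases before to 50 bases after the start site in RefSeq (GRCm38.p6, the build also named mm10), and 31 of the 40 members matched by symbol. An ISRE was counted where GAAANNGAAA, or TTTCNNTTTC for the other strand, occurred. Each stretch below has 30 bases, reads 5′ to 3′ on the gene's own strand, and shows the ISRE letters in capitals (in Trim21 and Trim26, a pair of overlapping matches).
Trim21: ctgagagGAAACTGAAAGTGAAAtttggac
Trim26: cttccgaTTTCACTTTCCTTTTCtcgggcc
Trim34a: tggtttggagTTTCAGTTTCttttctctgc
Trim5: agagttgtggTTTCTGTTTCatttccagag
Trim12a: agagttgtggTTTCTGTTTCatttccagag
Trim12c: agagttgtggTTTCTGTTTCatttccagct
Trim30a: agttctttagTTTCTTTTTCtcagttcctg
Trim30d: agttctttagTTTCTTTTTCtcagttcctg

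The Trim21 stretch lies at chr7:102565447-102565476 (minus strand) and begins its match after the first 13 transcribed bases. The Trim26 stretch lies at chr17:36836979-36837008 (plus strand), and its match ends 144 bases before the start site. The remaining ones lie in a gene cluster on chromosome 7: Trim34a at chr7:104244457-104244486 on the plus strand, and on the minus strand Trim5 at chr7:104288136-104288165, Trim12a at chr7:104315466-104315495, Trim12c at chr7:104353359-104353388, Trim30a at chr7:104465210-104465239 and Trim30d at chr7:104507871-104507900. In Trim34a and Trim12a the match begins after the first 10 transcribed bases. It ends 39 bases before the start site in Trim5, 19 in Trim12c, 26 in Trim30a and 31 in Trim30d. The stretches of Trim5 and Trim12a are the same at 30 of 30 positions, and Trim12c is the same as both at 28. Those of Trim30a and Trim30d are the same at 30 of 30 positions. A second RefSeq start site of Trim30a also has a match in its window.

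In all, 8 of the 11 interferon-inducible members with a promoter entry held an ISRE, against 1 of 20 other members (Trim2, in 1 of its windows). Among all tested genes with an entry, 384 of 9614 (3.99%) held one, and 3.44% of all 32851 windows did. Trim25, Trim30b and Trim56 had no match in this window. The letters of the interferon-gamma activated site (GAS), TTCNNNGAA, which reads the same on both strands, stood in 2 members, Trim45 and Trim46, and in 0 of the 11 interferon-inducible ones. They stood in 8.30% of all windows. A match describes letters only, not binding.

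In the authors' deposited table, 0 of the 12 tested interferon-inducible members were called (1.32% of all tested rows were) and none had an unadjusted p under 0.05. Of the 12 members, 8 were higher in MEK1-hi, while 46.2% of all tested rows were, and the median log2 difference was 0.27. Of the 28 other members, 14 were higher and 14 lower, with a median of -0.01. The direction depends on the scale for the small differences. Bringing the groups to equal FPKM sums over the tested rows lowers every log2 difference by 0.13, and rescaled has this meaning throughout. Then 7 of the 12 interferon-inducible members and 7 of the 28 others are higher, Trim41 by only 8.6e-05. So are 3337 of 12306 tested rows above 0 in both groups. These 12306 rows sum to 445944 and 488516 FPKM. Over all rows the sums are closer, 457142 and 489538 FPKM, so a rescaling over all rows would shift less and may change fewer signs. The spread over libraries that a test of these medians needs is not in the table, and none was made.

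**Figure D2:**
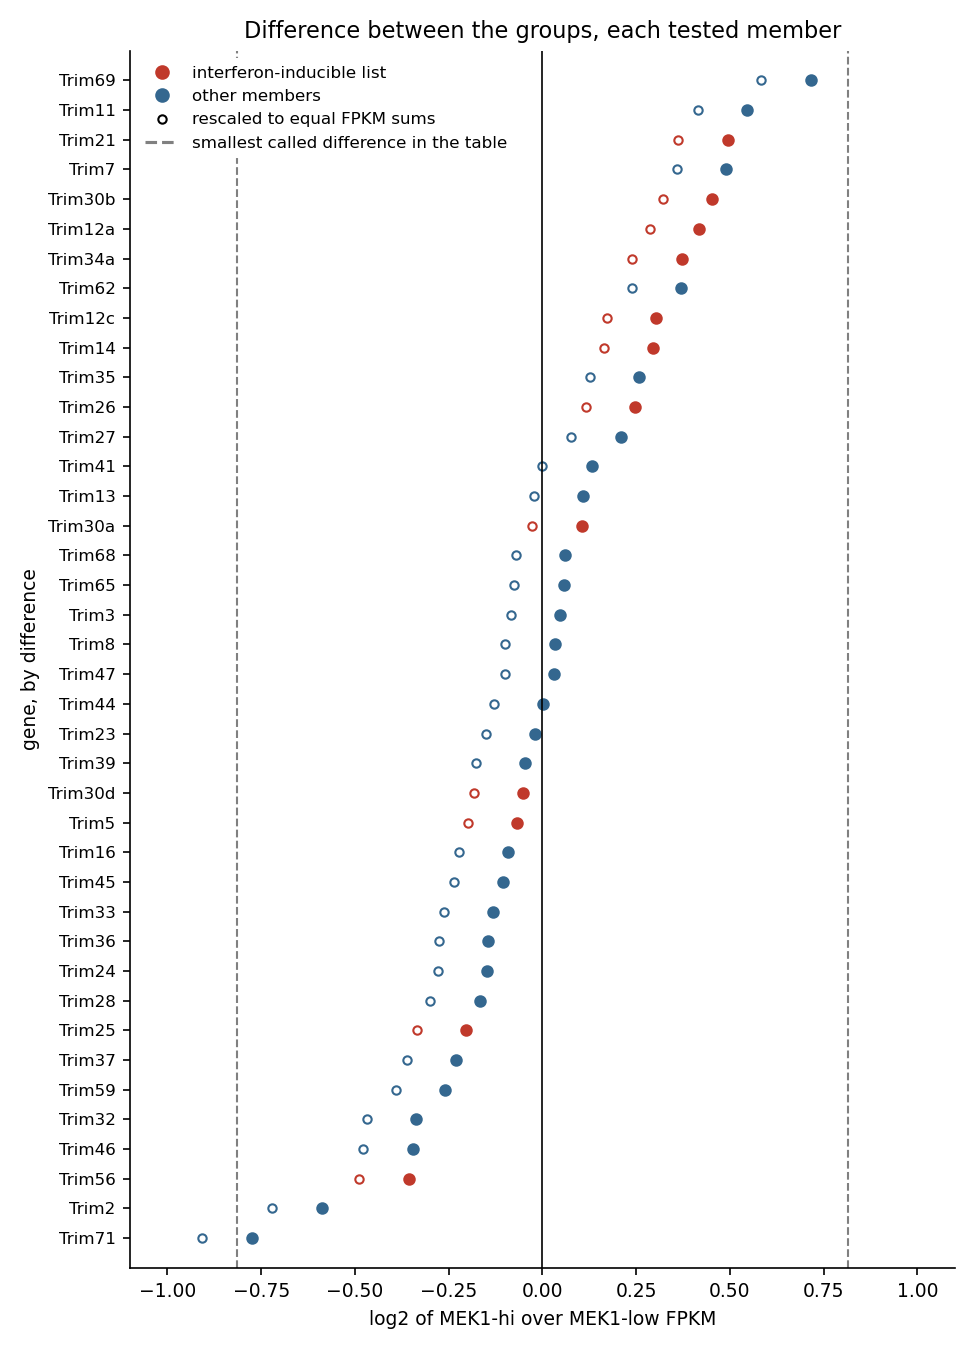
Log2 difference (MEK1-hi over MEK1-low FPKM) of each of the 40 tested members, in order. Filled points use the deposited FPKM. Open points use the values rescaled to equal FPKM sums over the tested rows, 0.13 lower. Every filled point lies inside the dashed lines, drawn on both sides at 0.82. This is the smallest called absolute difference among rows above 0 in both groups. The lines use the deposited scale, so open points, such as that of Trim71 past a line, cannot be read against them. Among genes above 0 in both groups, none with a mean FPKM under 1 was called.

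Trim25 was the most abundant member, and it was lower in MEK1-hi, while 8 of the 12 interferon-inducible members were higher. It encodes the ligase that ubiquitinates the RNA sensor RIG-I. It had 101 and 88.1 FPKM (-0.20, statistic -0.50, p = 0.44 in the authors' deposited table). With this level, 93.4% of tested rows had a lower mean FPKM. The sum over the 12 interferon-inducible members was 218 and 219 FPKM with Trim25, and 116 and 131 without it. Trim56, which acts with the DNA-sensing pathway of STING, was also lower in MEK1-hi, with 4.91 and 3.83 FPKM (-0.36, p = 0.248 in the authors' deposited table).

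Trim21 had the largest difference of the list. It encodes the cytosolic antibody receptor, which binds the Fc part of IgG on viruses that enter a cell and sends them to the proteasome. It had 3.98 and 5.61 FPKM, a 1.41-fold difference (log2 0.49, statistic 0.98, p = 0.129 in the authors' deposited table). Trim14, an adaptor without a RING domain that works with the sensor proteins MAVS and cGAS, had 8.12 and 9.97 FPKM (0.30). Of the 100-base stretches of its GENCODE M21 transcripts (100 bases is the read length), 27.7% also occur, on either strand, in transcripts of Nans. The libraries were stranded and the authors' strand setting is not given, so any effect on the Trim14 value is unknown. The authors' locus of Trim14 is shared with Gm16731 and Coro2a, and Coro2a had 7.46 and 10.6 FPKM (0.50, not called). Trim26, in the MHC region of chromosome 17, had 19.0 and 22.6 FPKM (0.25). Trim21, Trim14 and Trim26 remained higher in MEK1-hi after rescaling.

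The chromosome 7 cluster holds the mouse relatives of human TRIM5, a retroviral restriction factor, and of TRIM34. Its 10 rows run from Trim6, which starts at 104218795, to Trim30e-ps1, which ends at 104535361 (mm10), and 7 of them were tested. Trim34a had 5.44 and 7.04 FPKM (0.37). Trim12a had 8.06 and 10.8 FPKM (0.42), and Trim12c 6.91 and 8.52 (0.30). Trim5, which shares its ISRE stretch with Trim12a base for base, had 1.52 and 1.45 FPKM (-0.07). Of these near-copies, Trim12a and Trim12c, at several FPKM, were higher in MEK1-hi and the scarcer Trim5 was not, and none was called.

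Trim30a was the most abundant gene of the cluster and the third of the family. It restrains Toll-like receptor signalling in mouse macrophages. It had 43.1 and 46.4 FPKM, a log2 difference of 0.10 that turns to -0.03 when the groups are rescaled. Trim30d, with the same ISRE stretch, had 14.7 and 14.1 FPKM (-0.05). Trim30b, without a match, was the scarcest tested gene of the cluster, with 0.546 and 0.747 FPKM (0.45). In the cluster the near-copies share sequence beyond their promoters. Of the 100-base stretches of Trim34a, 21.0% also occur in Trim34b and 18.0% in Gm47248. For Trim12c and Trim5, 7.02% and 6.64% occur in the other, and for Trim30a, 4.41% occur in Trim30d. Trim34b was near 0 (0.0348 and 0.0822 FPKM). How the authors assigned reads that match several genes is not given in the sources used here, so values could shift between these copies.

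**Figure D3:**
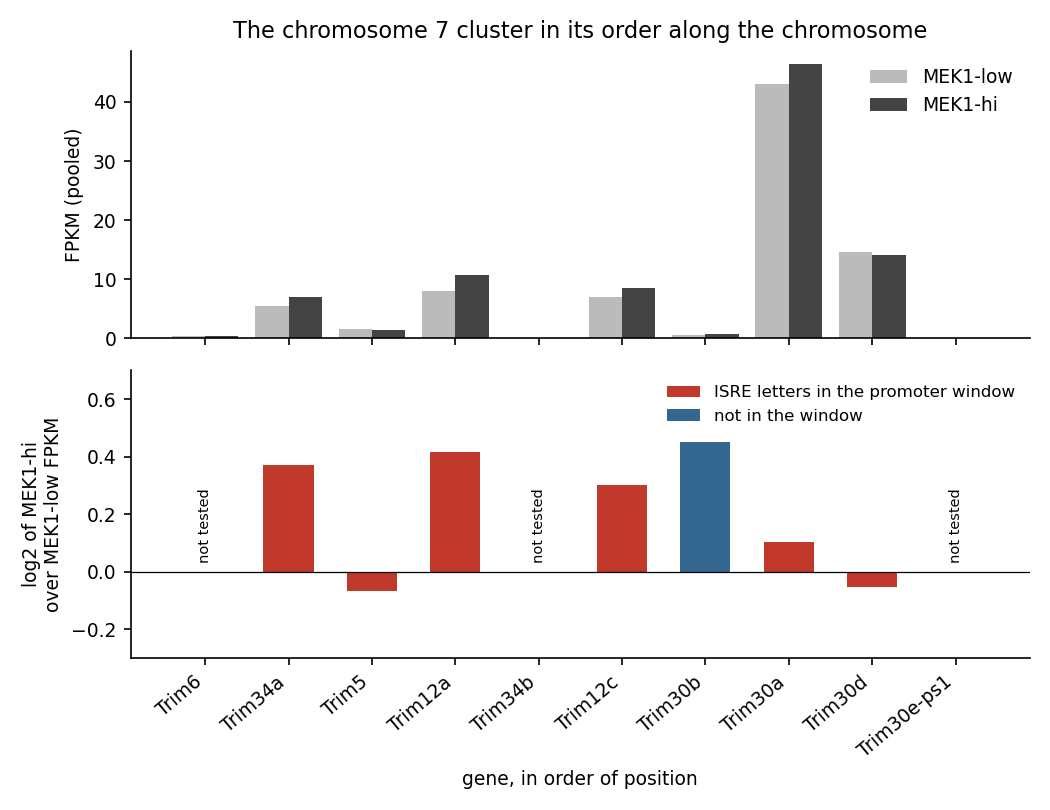
FPKM of the 10 rows of the chromosome 7 cluster in each group (top, bars from 0) and log2 difference of the 7 tested ones (bottom), in order of position. Trim30a dominates with 43.1 and 46.4 FPKM, and the bars of Trim34a, Trim12a, Trim12c and Trim30b stand at 0.30 or above while those of Trim5 and Trim30d lie just under 0.

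The chromatin-reading members were all lower in MEK1-hi, by small amounts. Trim28 encodes the corepressor that KRAB zinc finger proteins recruit to silence endogenous retroviruses, and it was the second most abundant member, with 70.7 and 63.0 FPKM (-0.17, p = 0.473 in the authors' deposited table). Its relatives Trim24 and Trim33, cofactors of nuclear receptors and of SMAD signalling, had 4.45 and 4.01 FPKM (-0.15) and 5.56 and 5.07 FPKM (-0.13). Trim66, the remaining one, had 0.110 and 0.0937 FPKM and was not tested. Of the 3 tested members of this class, 0 were called (1.32% of all tested rows were). Rescaling lowers every difference, so it could not change their direction. Trim25 and Trim28 together made up 37.1% of the summed FPKM of the 40 members in MEK1-low and 32.3% in MEK1-hi.

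The members with NHL repeats, which bind RNA or other proteins, included the lowest log2 differences of the family, those of Trim71 and Trim2. Trim71, a stem cell factor and a target of the microRNA let-7, had 0.717 and 0.419 FPKM (-0.78, p = 0.116 in the authors' deposited table). Trim2, a ligase best known from nerve cells, had 1.34 and 0.893 FPKM (-0.59, p = 0.111 in the authors' deposited table). Trim32, mutated in a muscular dystrophy, had 3.33 and 2.64 FPKM (-0.34). Trim3 was the exception, with 10.9 and 11.3 FPKM (0.05, or -0.08 when rescaled). None of the 4 was called by Cuffdiff, beside 1.32% of all tested rows. Trim71 is close to the lowest levels tested. Among tested rows above 0 in both groups, 1119 had a mean FPKM under 1. Cuffdiff called 0 of these 1119 in the authors' deposited table. Trim2, at a mean of 1.12 FPKM, lies just above that level.

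The microtubule-associated members Trim36 and Trim46 were also lower, with 4.85 and 4.39 FPKM (-0.14) for Trim36 and 1.98 and 1.56 (-0.35) for Trim46, which organises microtubules in axons. The other genes listed here for this class, Trim9 and Trim67, were at or under 0.0111 FPKM in each group and were not tested. The membrane-anchored members had 3.14 and 3.39 FPKM for Trim13 (0.11, or -0.02 when rescaled) and 7.99 and 6.68 for Trim59 (-0.26). The muscle class was near 0: Trim54 and Trim63 were listed at 0 in both groups, Trim55 had 0.0820 and 0.0524 FPKM and Trim72 0.268 and 0.333. Of 5 skeletal muscle markers, Myh4 was listed at 0 and the highest was Mylpf with 1.39 and 1.16 FPKM.

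Outside these classes, Trim11 stood out by its p. It encodes a ligase of protein quality control. It had 14.4 and 21.1 FPKM, a 1.46-fold difference (log2 0.55, or 0.41 when rescaled), with statistic 1.38, p = 0.0351 and q = 0.685 in the authors' deposited table. Its position is chromosome 11, 58978093 to 58991462. Its neighbor on that chromosome, Trim17, had 0.191 and 0.294 FPKM and was not tested. Trim8, which binds the cytokine signalling inhibitor SOCS1, had 22.2 and 22.7 FPKM (0.03, or -0.10 when rescaled), and Trim35 had 20.2 and 24.2 (0.26). Trim65, a ligase for the RNA sensor MDA5, had 1.93 and 2.00 FPKM (0.06, or -0.08 when rescaled).

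Trim7 and Trim62 were higher at low levels. Trim7, which binds glycogenin, had 1.12 and 1.57 FPKM (0.49), and Trim62 had 1.16 and 1.50 (0.37). Trim69 had the highest positive log2 difference of the members, 0.902 and 1.48 FPKM (0.72), with a statistic of 0.025 and p = 0.639 in the authors' deposited table. The authors' locus of Trim69 (chromosome 2, 122120108 to 122186189) is shared with B2m, at 5202 and 7276 FPKM, and Patl2. Of 606 tested rows with a mean FPKM of at least 1 and an absolute log2 difference over 0.7, 3 had an absolute statistic under 0.1, as Trim69 did in the authors' deposited table. The remaining tested members (Trim16, Trim23, Trim27, Trim37, Trim39, Trim41, Trim44, Trim45, Trim47 and Trim68) had log2 differences from -0.23 (Trim37) to 0.21 (Trim27). Trim44, at 14.6 FPKM in each group, had the smallest one of all members (0.00).

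**Figure D4:**
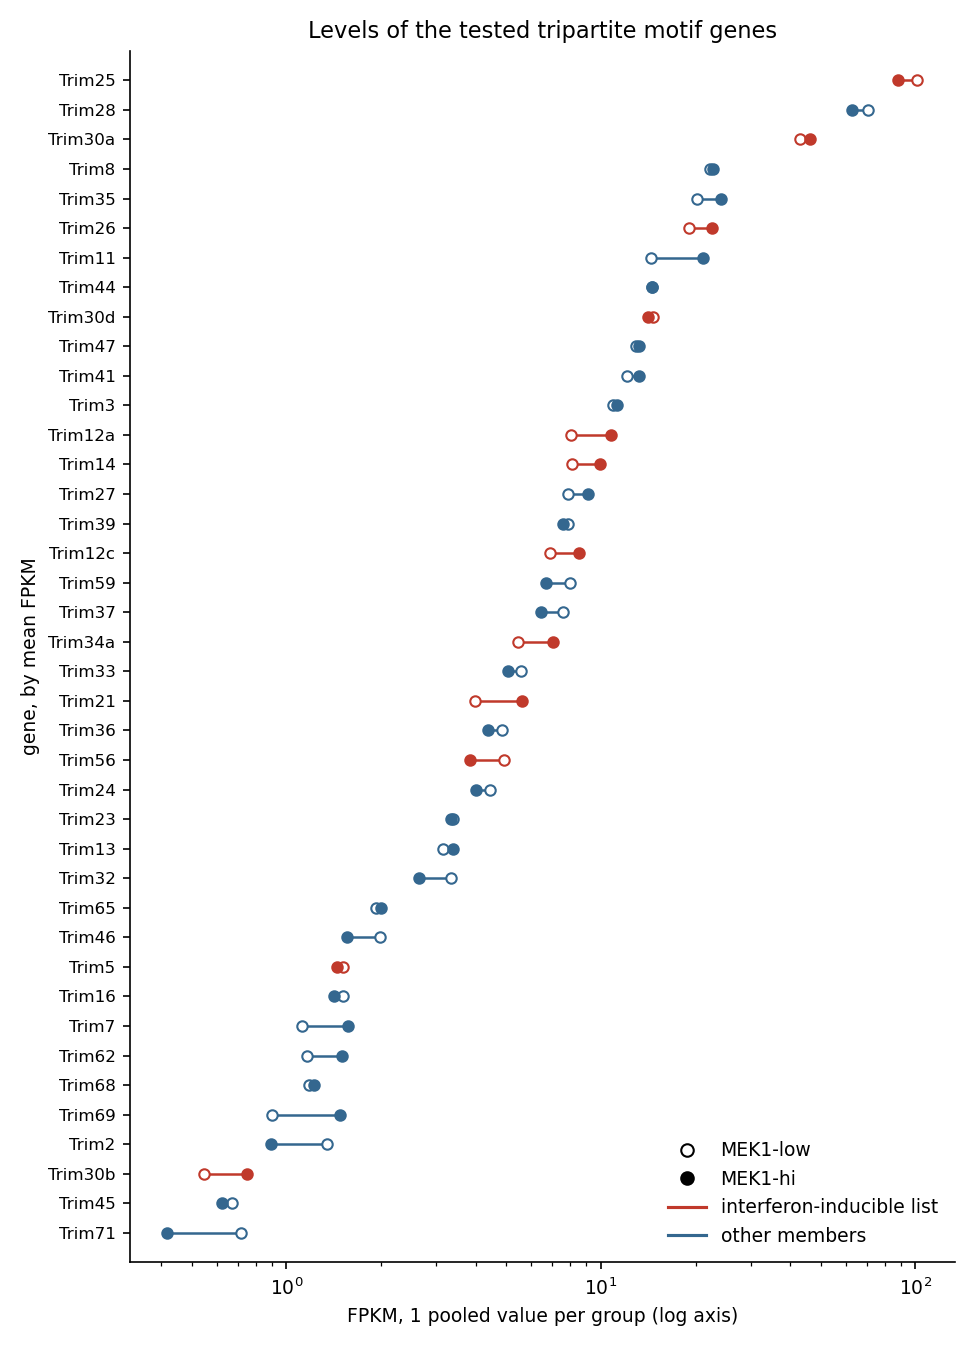
FPKM of the 40 tested members in MEK1-low (open points) and MEK1-hi (filled points), log axis, in order of mean FPKM; each point is 1 pooled value. Levels run from 0.419 (Trim71 in MEK1-hi) to 101 (Trim25 in MEK1-low), and the line joining the groups is short for most genes.

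By level, 12 members had a mean FPKM of at least 10, 25 lay between 1 and 10, and 3 (Trim30b, Trim45 and Trim71) were under 1. Among the 12, the largest absolute difference was 0.55 and the median 0.12. Over the 5316 tested rows above 0 in both groups with a mean of 10 to 100 FPKM, the median was 0.13. Among the 25, the largest was 0.72 and the median 0.26, beside 0.19 over the 5112 such rows at that level. Of those rows, 82 at the higher and 59 at the lower level were called by Cuffdiff, the smallest with absolute differences of 0.82 and 0.88. Of the 26 rows of the family that were not tested, 9 were listed at 0 in both groups, 5 in one group, and the highest value was 0.431 FPKM (Trim6 in MEK1-low). Trim38, on the interferon-inducible list, had 0.0365 and 0.0107 FPKM.

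Family members that carry other symbols were read beside these. Pml (TRIM19), the organiser of nuclear bodies, had 12.2 and 14.1 FPKM (0.21), and Mefv (TRIM20), which encodes the inflammasome sensor pyrin, had 34.3 and 35.7 (0.06, lower in MEK1-hi when rescaled). Mid1 had 2.51 and 1.66 FPKM (-0.59) and Mid2 0.108 and 0.0834, not tested. None of the 3 tested ones was called in the authors' deposited table, where 1.32% of all tested rows were.

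The RNA and DNA sensing pathway, in which Trim25, Trim14, Trim56 and Trim65 act, was read as a list of 22 genes, all found and tested. None of them was called in the authors' deposited table, and 2 passed an unadjusted p of 0.05. Over all tested rows, 1.32% were called and 6.08% passed that p, and the list was not tested against these shares. Of the 22, 20 were higher and 2 lower (median 0.20), while 46.2% of all tested rows were higher. After rescaling 15 were higher and 7 lower. The pair under 0.05 was Zbp1, a sensor of Z-form nucleic acid, with 98.7 and 154 FPKM (0.64, q = 0.536 in the authors' deposited table), and Sting1, with 58.6 and 81.3 FPKM (0.47, q = 0.759 in the authors' deposited table). Ddx58, which encodes RIG-I, the substrate of Trim25, had 17.3 and 16.2 FPKM (-0.09). Isg15, the ubiquitin-like modifier, had 178 and 231 FPKM (0.37). Of 11 tested genes for ubiquitin and the enzymes that pass it to TRIM ligases, 0 were called (median 0.10), with 7 higher and 4 lower, or 4 and 7 when rescaled. Ube2d3, an enzyme that many RING ligases use, had 73.3 and 84.4 FPKM (0.20).

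The comparators for interferon were chosen with their values known. All 5 interferon-gamma genes were called higher in the authors' deposited table, where 0.999% of tested rows were, with a median difference of 1.62. Irf1, a factor that binds ISRE letters, had 146 and 305 FPKM (1.06, q = 0.0163 in the authors' deposited table). Of 8 type I interferon genes, 0 were called and 0 had an unadjusted p under 0.05 in the authors' deposited table (median 0.06). Over all tested rows the shares were 1.32% and 6.08%. Of the 8, 6 were higher and 2 lower, or 3 and 5 when rescaled, so their direction depends on the scale. Isg15 is on this list and on the sensing list. The median of the 12 interferon-inducible TRIM genes, 0.27, lies between them, and the largest TRIM difference on that list (0.49) is below the smallest of these interferon-gamma genes (1.06, Irf1). Among all tested genes with a promoter entry, 384 with an ISRE had a median difference of 0.04 and 216 of them were higher. Of the 384, 21 were called by Cuffdiff, all 21 higher, while 123 of all 163 called rows were higher. The 8 TRIM genes with an ISRE on the interferon-inducible list had a median of 0.28, with 6 of 8 higher. Of those 6, Trim30a turned lower when rescaled (-0.03). The 8 are not separate cases: Trim5, Trim12a and Trim12c carry near-identical stretches, and Trim30a and Trim30d the same one.

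**Figure D5:**
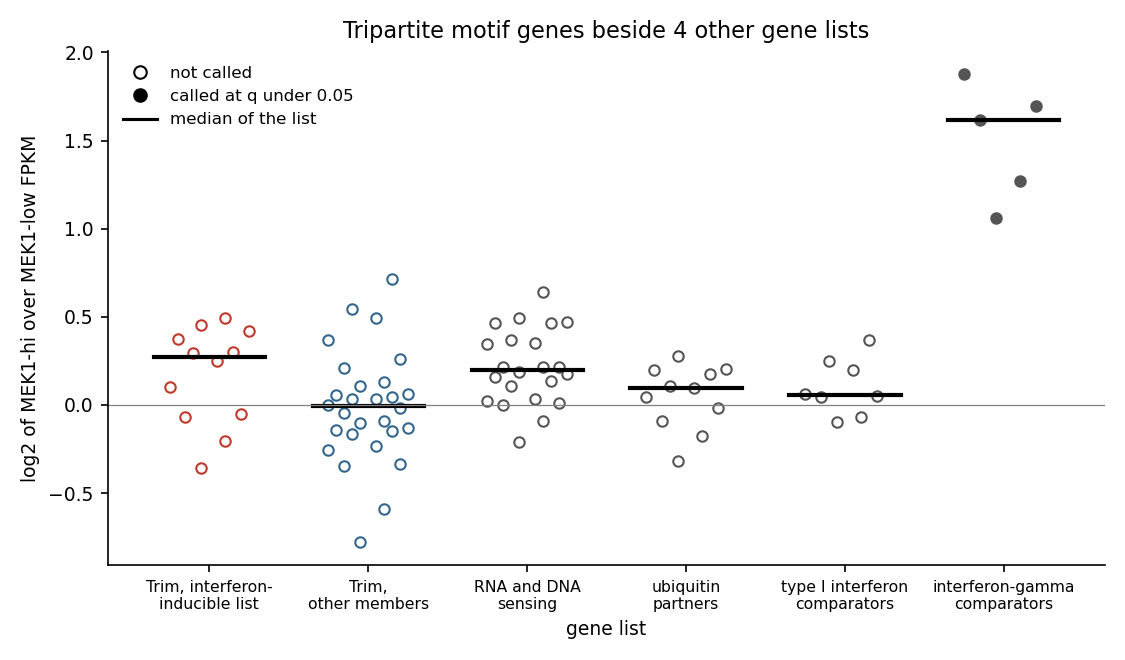
Log2 difference (MEK1-hi over MEK1-low FPKM) of each tested gene in the TRIM groups and 4 other lists; filled points were called at a q of 0.05, horizontal bars are medians. All 5 interferon-gamma comparators are filled and lie at or above 1.06, while every TRIM, sensing, ubiquitin and type I interferon gene is open.

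The labelled cell type showed in its markers: all 8 macrophage markers were present, between 23.1 (Mertk) and 6372 FPKM (Lyz2). Of these 8, 0 were called in the authors' deposited table, where 1.32% of all tested rows were. Summed levels of several other cell types' markers differed in value between the groups. All 6 fibroblast and tumor markers were lower in MEK1-hi, with 2 called in the authors' deposited table (Acta2 and Thy1; 0.325% of tested rows were called lower) and summed levels of 1163 and 706 FPKM. All 4 dendritic cell markers were higher, with a sum of 6.29 and 16.7 FPKM. Of them, 2 were called (Clec9a and Xcr1), where 0.999% of tested rows were called higher. All 4 T cell markers were higher too (0 called, sum 4.79 and 9.69). Of 4 NK cell markers, 2 were tested, with 0 called: Nkg7, a cytotoxic granule gene that T cells also use, had 3.00 and 8.66 FPKM and makes up most of the list's sum of 3.76 and 9.51 FPKM, while Gzma had 0.650 and 0.670 and was lower when rescaled. B cell markers summed to 8.50 and 9.47 FPKM, nearly all from Cd79b (8.05 and 8.91), with Ms4a1, which was not tested, at 0.101 and 0.212. Neutrophil markers summed to 54.6 and 62.8 FPKM, but their members differed in direction: Csf3r had 26.2 and 36.6 FPKM, S100a8 13.3 and 14.2, and S100a9 15.1 and 11.9, with Ly6g under 0.1 in each group. When rescaled, 1 of the 3 tested neutrophil markers was higher and 2 were lower. The part of these cells in the TRIM values was not tested. In bulk RNA, fewer cells of a type and less RNA per cell cannot be told apart.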

How the data were processed

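RNA of tumor macrophages was sequenced from 5 libraries, 3 MEK1-hi and 2 MEK1-low. Per the labels' protocols, stranded poly(A) libraries gave paired reads. FastQC 0.73, the aligner TopHat, Cufflinks with Cuffdiff, and the mm10 build are named per the submitters' processing notes. For the annotation and strand setting, nothing is given in the sources used here. The FPKM values deposited by the authors are 1 pooled estimate per group. The statistic is the authors' Cuffdiff score. The p-value and q-value are also as the authors deposited them. The table does not show the depth of any library, so it is unknown and no interval is given.

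Log2 differences were computed from FPKM, since the deposited fold column held error text. Members were called at a q of 0.05 over all tested rows. The members and lists were chosen with earlier results of these data known. Named were all interferon-inducible and class members tested, those at p under 0.05, the 5 largest and 5 smallest differences with an FPKM of at least 1, the 5 most abundant and, per other list, called genes or up to 3 abundant ones. Tmem173 and Mb21d1 were matched as Sting1 and Cgas through RefSeq synonyms. Other genes named (among them Trim6, Trim17, Trim38, Trim65, Ddx58 and markers) were chosen after their values were seen. Shared stretches were counted over GENCODE M21 transcripts on both strands. Some listed genes are not reported here. Coordinates are 1-based. Scripts were tested on simulated data. Alternatives changed threshold, p source, filter, pseudocount, scaling and list. Work was done in Python 3.11.15 with pandas 2.3.3.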

Additional observations from a re-analysis of the deposited data

How the results depend on the processing

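The count of members called, 0, was the same with p from the statistic and a normal distribution. It was also the same with q recomputed over rows with an FPKM of at least 1. A q of 0.1 or 0.01 could not change the count, since the lowest q of a member in the authors' deposited table was 0.685. Rows of several symbols could not change it either, since the only such row was not tested. An unadjusted p under 0.05 gave 1. The median log2 difference of the interferon-inducible members, 0.27, was 0.21 with a pseudocount of 1. It was 0.14 rescaled to equal FPKM sums over the tested rows and 0.30 centred on the median of tested rows. It was 0.25 with an FPKM of at least 1, 0.20 for the narrow list of 6 genes and 0.26 for the wide one. That of the other members, -0.01, was -0.14 rescaled, 0.015 centred, 0.017 with an FPKM of at least 1, 0.017 with the narrow list and -0.045 with the wide one. Of 40 members, 8 changed sign when rescaled: Trim13 (-0.022), Trim3 (-0.084), Trim30a (-0.027), Trim44 (-0.13), Trim47 (-0.10), Trim65 (-0.075), Trim68 (-0.071) and Trim8 (-0.10). Centring turned 1, Trim23 (0.0044), and pseudocounts of 1 or 0.1 turned 0. The signs changed by construction, since each scaling adds the same amount to every gene. No paired analysis was possible because the table holds 1 pooled value per group, and leaving out each library could not be run for the same reason.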

Other observations

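The promoter letters were also read over the genes that the authors' deposited table calls, as a description with no test. Of 87 genes called higher in MEK1-hi that have a promoter entry, 21 (24.1%) held an ISRE and 18 (20.7%) a GAS, beside 3.99% and 8.32% of all 9614 tested genes with an entry. Of 26 genes called lower, 0 held an ISRE and 1 a GAS. No interferon-inducible TRIM gene with an entry held a GAS, and 8 of 11 held an ISRE.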
